A study of Mus musculus with 6 samples.

Results

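A set of 10 liver genes that make, conjugate and move bile acids, or sense them through the nuclear receptor FXR, were compared between g*Spns1*-cKO and control mice. They were picked by gene name, as 10 of the 54532 genes in the RNA-Seq count table. These are the synthesis enzymes *Cyp7a1*, *Cyp8b1*, *Cyp27a1* and *Cyp7b1*, the conjugating enzymes *Slc27a5* and *Baat*, the transporters *Slc10a1* and *Abcb11*, and the FXR gene *Nr1h4* with its target *Nr0b2*. All 10 passed the filter on low counts, as did 15449 genes in all, with between 370 and 32718 counts per library.

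Poly-T-selected liver RNA was sequenced from 3 control mice and from 3 g*Spns1*-cKO mice, 1 library each. The g*Spns1*-cKO animals carried floxed *Spns1* and the tamoxifen-dependent Cre-ERT2 at Rosa26, which is active in the whole body. Tamoxifen at 50 mg/kg on postnatal days 11, 13 and 15 removed exon 3 of *Spns1*, which encodes a lysosomal lysolipid transporter. The methods describe *Spns1* fl/fl littermates as controls, whereas the labels call the control livers WT. Neither states the age at which the livers were taken or whether the controls of this experiment received tamoxifen. Since the deletion was not restricted to hepatocytes, a change in the liver cannot be told apart from an effect of the deletion in another organ. *Spns1* itself was counted 1008, 1562 and 875 times in controls against 642, 1175 and 698 times in g*Spns1*-cKO livers (log2 fold change -0.87, edgeR adjusted p = 0.0300). That call was lost when some single libraries were left out (highest edgeR adjusted p = 0.0910). It was also lost with library size scaling (-0.43, edgeR adjusted p = 0.213), upper-quartile scaling (-0.74, edgeR adjusted p = 0.0635) and hepatocyte marker scaling (-0.44, edgeR adjusted p = 0.11). Gene counts include reads from exons that were not deleted. By western blot, the paper reports a reduced SPNS1 protein band in livers of g*Spns1*-cKO mice after tamoxifen. All 6 libraries held between 1731 and 2568 counts of the Y-linked gene *Ddx3y* and at most 5 counts of *Xist*, a count made after the data were seen.

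Bile acids are made from cholesterol in hepatocytes. *Cyp7a1* starts the classic pathway, *Cyp8b1* sets the share of cholic acid, and *Cyp27a1* and *Cyp7b1* act in the alternative pathway. The acids are then linked to taurine or glycine, pumped into bile and taken up again from portal blood. When bile acids bind FXR in hepatocytes, FXR raises transcription of *Nr0b2*, whose product SHP represses *Cyp7a1* and *Cyp8b1*, and of the export pump *Abcb11*.

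The libraries held between 30350002 and 35295611 counts. Levels are given as CPM, counts per 1000000 of a library size scaled by edgeR's TMM method. Tests are the quasi-likelihood test of edgeR, adjusted by Benjamini-Hochberg over the 15449 genes. The TMM factors lay between 0.834 and 0.873 in control libraries and between 1.16 and 1.18 in g*Spns1*-cKO libraries, so the scaling separates the groups. The first principal component held 74.6% of the variance and separated the groups. On it, g*Spns1*-cKO replicate 1 lay at 54.2 and the other g*Spns1*-cKO libraries at 71.0 and 72.0.

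All 10 genes passed the test at an adjusted p under 0.05, 9 lower and 1 higher in g*Spns1*-cKO livers. Of all genes tested, 41.8% were called, 20.5% lower and 21.3% higher. The 9 lower genes had no overlap between the groups, which held for 26.9% of all genes in that direction. The median log2 fold change of the 10 was -0.79, against 0.014 over all genes. Together the 10 took between 0.367% and 0.380% of the counts in control libraries and between 0.262% and 0.274% in g*Spns1*-cKO libraries. In whole liver, fewer hepatocytes and less RNA per hepatocyte cannot be told apart.

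**Figure D1:**
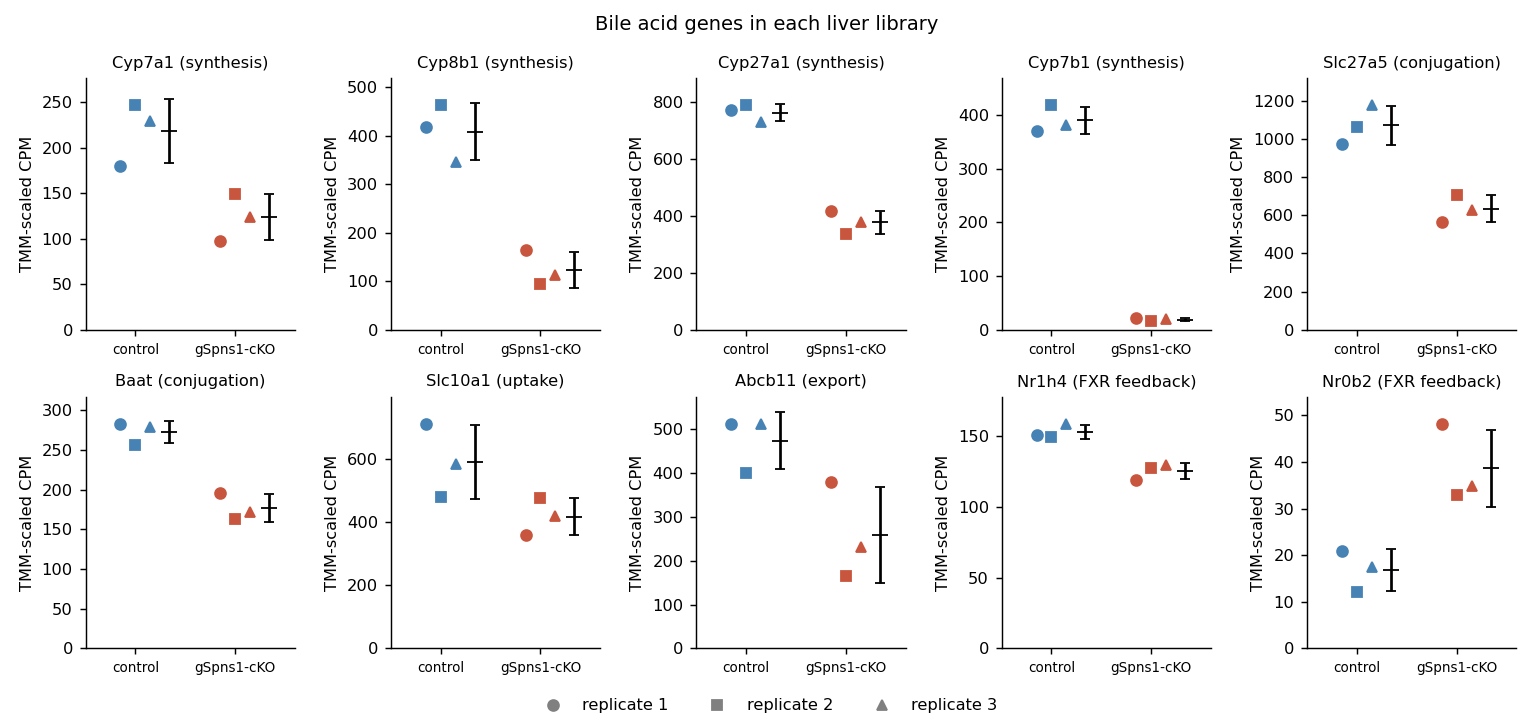
Level of each of the 10 genes in every library, in TMM-scaled CPM from 0, with replicates marked by shape and black bars giving the mean ± SD (n = 3 mice per group). *Cyp7b1* fell from a mean of 389.7 to 19.0 CPM, *Nr0b2* rose from 16.8 to 38.6 CPM, and the groups nearly touch in *Slc10a1* and *Abcb11*.

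*Cyp7a1* (ENSMUSG00000028240), the rate-limiting enzyme of the classic pathway, lies on chromosome 4 of GRCm38, minus strand, from 6265612 to 6275633. Its level was 179.7, 247 and 229 CPM in control replicates 1, 2 and 3 and 98.0, 149 and 124 CPM in g*Spns1*-cKO replicates 1, 2 and 3. Replicate 1 was the lowest of its group in both genotypes, and the groups did not overlap. The control mean was 219 ± 34.8 CPM and the g*Spns1*-cKO mean 124 ± 25.5 CPM (SD, n = 3; log2 fold change -0.82, SE 0.17, edgeR adjusted p = 0.00416).

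*Cyp8b1* (ENSMUSG00000050445), the sterol 12-alpha-hydroxylase, lies on the minus strand of chromosome 9 from 121914356 to 121916305. It had 418, 463 and 346 CPM in control livers and 165, 93.8 and 113 CPM in g*Spns1*-cKO livers. Every g*Spns1*-cKO liver was well below every control liver, with g*Spns1*-cKO replicate 1 the highest of the 3. The mean of 124 ± 37.1 CPM was 30.3% of the control mean of 409 ± 58.8 CPM (log2 fold change -1.72, SE 0.21, edgeR adjusted p = 0.000257).

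*Cyp27a1* (ENSMUSG00000026170), the mitochondrial sterol 27-hydroxylase that opens the alternative pathway and also acts on the side chain in the classic one, lies on the plus strand of chromosome 1 from 74713574 to 74737892. Control livers had 771, 787 and 727 CPM, and g*Spns1*-cKO livers 418, 336 and 378 CPM. The libraries of each group lay close together, at 762 ± 31.1 and 378 ± 40.6 CPM (log2 fold change -1.01, SE 0.14, edgeR adjusted p = 0.000364).

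*Cyp7b1* (ENSMUSG00000039519), the oxysterol 7-alpha-hydroxylase that follows *Cyp27a1* in the alternative pathway, lies on the minus strand of chromosome 3 from 18071950 to 18243338. Control livers had 369.8, 418 and 382 CPM, and g*Spns1*-cKO livers 21.8, 15.7 and 19.4 CPM. The g*Spns1*-cKO mean of 19.0 ± 3.05 CPM was 4.87% of the control mean of 389.7 ± 24.9 CPM. This was the largest change among the 10 genes, with a log2 fold change of -4.36 (SE 0.16, edgeR adjusted p = 1.29e-07). It rests on 604 to 784 counts in each g*Spns1*-cKO library and 9655 to 12861 in each control library. All 4 synthesis enzymes thus fell under TMM scaling, to between 4.87% and 56.7% of their control means.

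Conjugation needs 2 enzymes. *Slc27a5* (ENSMUSG00000030382, minus strand of chromosome 7 from 12988346 to 12998192) encodes the bile acid CoA ligase. It had 975, 1062 and 1175 CPM in control livers and 566, 707 and 629 CPM in g*Spns1*-cKO livers. Its log2 fold change was -0.76 (SE 0.15, edgeR adjusted p = 0.00293). *Baat* (ENSMUSG00000039653, minus strand of chromosome 4 from 49489422 to 49506557) encodes the acyltransferase that adds taurine or glycine. It had 283, 257 and 279 CPM in control livers and 196, 163 and 172 CPM in g*Spns1*-cKO livers (log2 fold change -0.62, SE 0.12, edgeR adjusted p = 0.00275). Both genes fell with no overlap between groups, to 59.2% and 64.9% of their control means.

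*Slc10a1* (ENSMUSG00000021135), which encodes the sodium-dependent uptake carrier NTCP of the sinusoidal membrane, lies on the minus strand of chromosome 12 from 80953183 to 80968705. It had 711, 478 and 583 CPM in control livers and 358, 475 and 418 CPM in g*Spns1*-cKO livers. The lowest control liver and the highest g*Spns1*-cKO liver, both replicate 2, were almost level. The log2 fold change was -0.50 (SE 0.18, edgeR adjusted p = 0.0412), and the call was lost without control replicate 1, control replicate 3, g*Spns1*-cKO replicate 1 or g*Spns1*-cKO replicate 3 (range of log2 fold changes -0.64 to -0.36, highest edgeR adjusted p = 0.133).

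*Abcb11* (ENSMUSG00000027048), the canalicular bile salt export pump BSEP, lies on the minus strand of chromosome 2 from 69238282 to 69342616. It had 511, 399 and 510.2 CPM in control livers and 379.6, 166 and 232 CPM in g*Spns1*-cKO livers. The g*Spns1*-cKO replicate 1 was close to the lowest control liver, and the other g*Spns1*-cKO livers were far below. The log2 fold change was -0.87 (SE 0.28, edgeR adjusted p = 0.0409) and became -1.25 without that library (edgeR adjusted p = 0.000419). Genes overlapping *Abcb11* on the opposite strand had at most 14 counts in a library. The call was lost without any 1 of the control libraries or g*Spns1*-cKO replicate 3 (highest edgeR adjusted p = 0.123).

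*Nr1h4* (ENSMUSG00000047638), the gene of FXR, lies on the minus strand of chromosome 10 from 89454234 to 89533585. It had 151, 149 and 159 CPM in control livers and 119, 127 and 129.6 CPM in g*Spns1*-cKO livers. This was the smallest of the 10 differences (log2 fold change -0.29, SE 0.11, edgeR adjusted p = 0.0480). The call was lost whichever library was left out (edgeR adjusted p = 0.0749 to 0.127), and the sign turned to 0.16 with library size scaling.

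*Nr0b2* (ENSMUSG00000037583), the gene of the repressor SHP, lies on the plus strand of chromosome 4 from 133553376 to 133556536. It had 20.8, 12.0 and 17.5 CPM in control livers and 48.2, 32.9 and 34.9 CPM in g*Spns1*-cKO livers. It alone among the 10 rose, to 230.2% of the control mean, with g*Spns1*-cKO replicate 1 the highest library. The log2 fold change was 1.20 (SE 0.22, edgeR adjusted p = 0.00338). *Abcb11*, *Baat* and *Slc27a5*, which FXR is also known to induce, were called lower under TMM scaling. For each of the 10 genes, a two-sided exact permutation test of the 3 against 3 livers gave p = 0.1, the smallest that this design allows.

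The promoters of *Abcb11*, *Nr0b2* and *Cyp8b1* are shown. The first 2 are FXR targets called in opposite directions under TMM scaling, and the last is repressed through SHP. The call of *Abcb11* was lost under upper-quartile, library size and hepatocyte marker scaling. Each promoter shown is the 250 bases before the RefSeq gene start (GRCm38.p6), 5′ to 3′ on the gene's strand, and capitals mark the motifs searched on both strands. FXR and its partner RXR bind an inverted repeat of the half-site AGGTCA with 1 base between (IR1), here AGGTCANTGACCT with at most 2 mismatches, which 0.957% of 32817 such windows hold. LRH-1, through which SHP represses *Cyp7a1* and *Cyp8b1*, binds AAGGNCA, found in 17.5% of windows. The half-site AGGTCA is in 14.0% and TATAAA in 12.4%.
*Abcb11* promoter, chr2:69342617-69342866, minus strand: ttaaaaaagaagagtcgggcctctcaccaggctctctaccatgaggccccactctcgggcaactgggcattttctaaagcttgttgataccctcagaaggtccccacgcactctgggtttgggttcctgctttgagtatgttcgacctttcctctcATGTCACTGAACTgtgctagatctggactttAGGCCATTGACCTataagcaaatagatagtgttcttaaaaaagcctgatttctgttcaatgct
*Nr0b2* promoter, chr4:133553126-133553375, plus strand: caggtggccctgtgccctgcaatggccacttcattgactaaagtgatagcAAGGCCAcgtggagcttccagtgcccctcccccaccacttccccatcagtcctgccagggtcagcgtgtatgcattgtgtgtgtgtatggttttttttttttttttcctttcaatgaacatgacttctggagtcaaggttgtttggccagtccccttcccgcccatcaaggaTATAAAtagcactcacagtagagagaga
*Cyp8b1* promoter, chr9:121916306-121916555, minus strand: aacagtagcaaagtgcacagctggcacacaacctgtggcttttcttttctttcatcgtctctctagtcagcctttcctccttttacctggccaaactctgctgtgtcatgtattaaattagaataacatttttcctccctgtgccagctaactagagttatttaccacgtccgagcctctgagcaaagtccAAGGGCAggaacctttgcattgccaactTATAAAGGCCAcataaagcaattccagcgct

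In *Abcb11*, AGGCCATTGACCT, 63 to 51 bases before the start, has 1 mismatch to the IR1 and contains the half-site TGACCT on the other strand. ATGTCACTGAACT, 94 to 82 bases before the start, has 2 mismatches. In *Nr0b2*, AAGGCCA lies 200 to 194 bases and TATAAA 28 to 23 bases before the start, and no IR1 was found in this window. In *Cyp8b1*, AAGGGCA lies 59 to 53 bases before the start, and AAGGCCA, 27 to 21 bases before it, overlaps TATAAA at 31 to 26 bases. Windows were also read for *Cyp27a1*, *Slc10a1* and *Nr1h4*. Of the 10 genes, 6 had a window, and only that of *Abcb11* held an IR1. The *Nr1h4* window, 89506659 to 89506908, lies inside the span given for that gene. Windows read for *Slc51b*, *Abcb4*, *Slco1a1*, *Slco1a4* and *Abcc4*, outside the 10, held no IR1 either. Sites farther from the start were not searched. No window was used for *Cyp7a1*, *Cyp7b1*, *Slc27a5* or *Baat*. A match describes the letters in the window, and binding was not measured.

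The choice of scaling decided 6 of the 10 calls. Scaling by library size alone, or by 8 hepatocyte markers, shifted the median over all genes from a log2 fold change of 0.014 to 0.46 and left 4 of the 10 genes called. Of all genes, 6.28% were then called lower and 47.2% higher with library size, and 5.95% and 46.2% with hepatocyte markers. With library size alone, the same 4 genes were called as with hepatocyte markers: *Cyp7b1* at -3.92, *Cyp8b1* at -1.28, *Cyp27a1* at -0.57 and *Nr0b2* at 1.65 on the log2 scale. *Cyp7a1* was then at -0.37 (edgeR adjusted p = 0.0948), *Abcb11* at -0.43, *Slc27a5* at -0.31, *Baat* at -0.18 and *Slc10a1* at -0.06, and *Nr1h4* changed sign to 0.16 (edgeR adjusted p = 0.223). Upper-quartile scaling moved the median of all genes to 0.14 and lost the calls of *Slc10a1*, *Abcb11* and *Nr1h4*. *Cyp7b1*, *Cyp8b1*, *Cyp27a1* and *Nr0b2* thus kept their calls under all 4 scalings run. For the other 6 genes, the call under TMM is relative to the median gene. Under TMM too, the calls of *Slc10a1*, *Abcb11* and *Nr1h4* were lost when single libraries were left out.

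**Figure D2:**
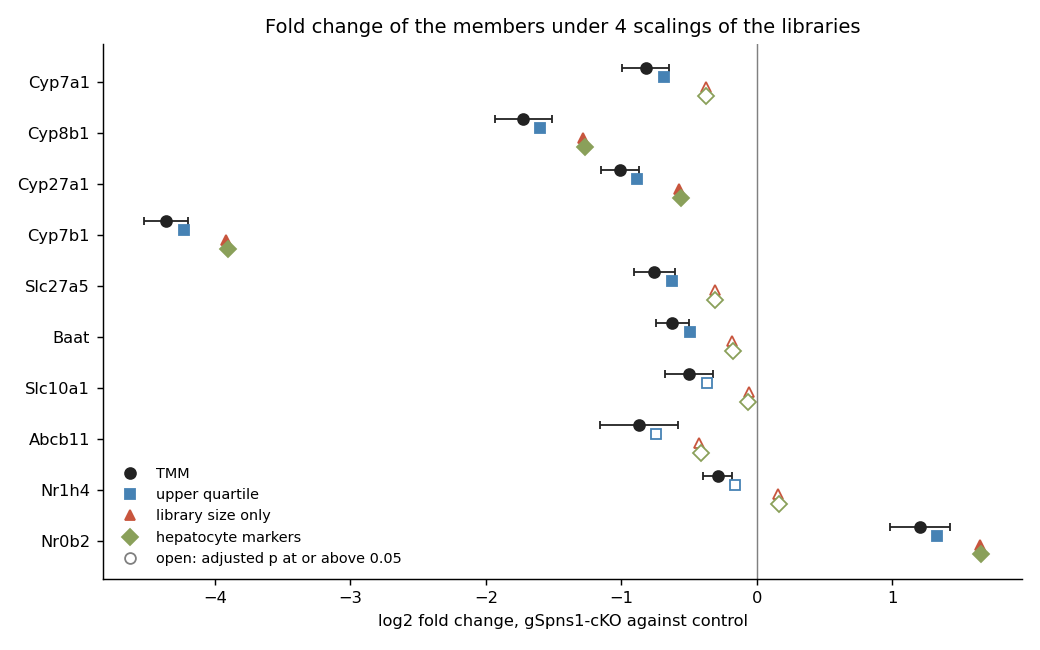
Log2 fold change of each gene in g*Spns1*-cKO against control livers under TMM (with SE), upper-quartile, library-size and hepatocyte-marker scaling, where open symbols have an edgeR adjusted p of 0.05 or more. *Cyp7b1*, *Cyp8b1*, *Cyp27a1* and *Nr0b2* keep filled symbols under all 4 scalings, and *Nr1h4* crosses 0.

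Ratios of 2 genes within a library do not depend on the scaling, and 5 were compared by two-sided exact permutation tests on the log2 ratio. The count of *Cyp7a1*, classic pathway, over *Cyp7b1*, alternative pathway, was 0.486, 0.591 and 0.601 in controls against 4.50, 9.47 and 6.41 in g*Spns1*-cKO livers. It was 11.7-fold higher in g*Spns1*-cKO livers with no overlap (exact permutation p = 0.1, adjusted over the 5 ratios 0.25). The count of *Nr0b2* over *Nr1h4* was 0.138, 0.0804 and 0.111 in controls against 0.406, 0.258 and 0.269 in g*Spns1*-cKO livers. It was 2.84-fold higher, also with no overlap (exact permutation p = 0.1, adjusted 0.25). Neither can pass a threshold of 0.05 with 3 mice against 3.

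The other ratios overlapped between the groups. *Cyp8b1* over *Cyp7a1*, which relates the cholic acid branch to the first step, was 2.33, 1.88 and 1.51 in controls against 1.69, 0.629 and 0.906 in g*Spns1*-cKO livers (exact permutation p = 0.2, adjusted 0.333). *Abcb11* over *Slc10a1*, export over uptake, was 0.719, 0.833 and 0.876 in controls against 1.06, 0.349 and 0.555 in g*Spns1*-cKO livers (exact permutation p = 0.4). The g*Spns1*-cKO libraries lay on both sides of all control libraries in that ratio. *Cyp7a1* over *Cyp27a1* differed by 0.19 on the log2 scale (exact permutation p = 0.4).

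**Figure D3:**
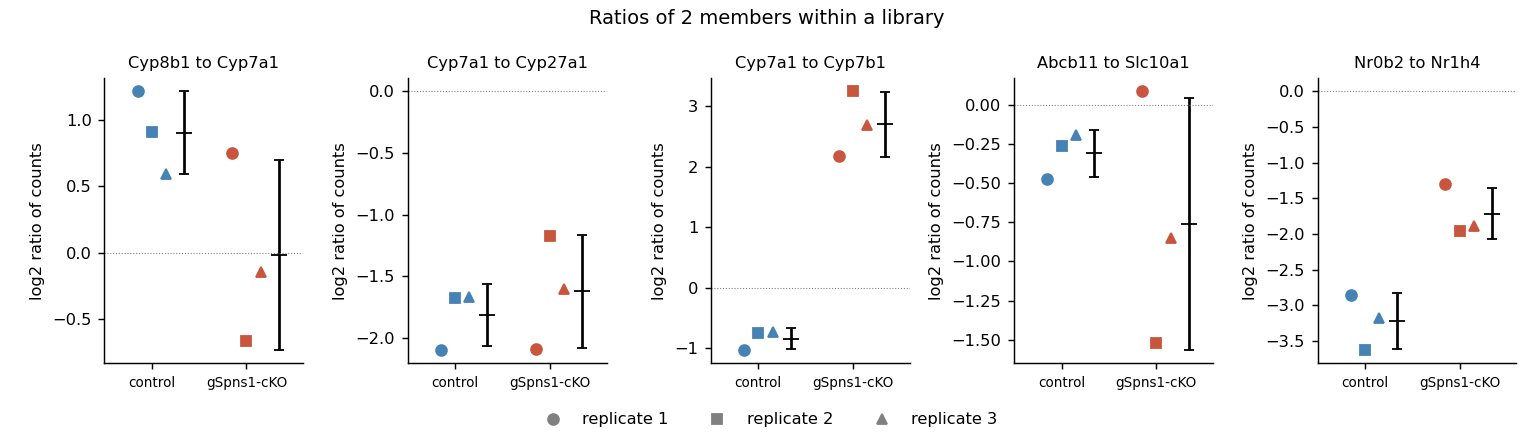
Log2 ratio of the counts of 2 genes in each library, with black bars giving the mean ± SD (n = 3 mice per group) and a dotted line at equal counts. *Cyp7a1* to *Cyp7b1* and *Nr0b2* to *Nr1h4* separate the groups, while the other 3 ratios overlap.

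Levels of different genes were compared as CPM per kilobase of the deposited gene length. In control livers the order ran from *Slc27a5* at 439 ± 41.3 through *Cyp27a1* at 351 ± 14.3, *Slc10a1* at 269 ± 53.0, *Cyp8b1* at 209.8 ± 30.2 and *Cyp7b1* at 179.9 ± 11.5 to *Baat* at 141 ± 7.22 CPM per kilobase. *Abcb11* at 92.0 ± 12.6, *Nr1h4* at 66.4 ± 2.12, *Cyp7a1* at 52.4 ± 8.33 and *Nr0b2* at 14.8 ± 3.93 CPM per kilobase followed. Libraries overlapped between *Slc10a1* and *Cyp8b1* and between *Cyp8b1* and *Cyp7b1*, and no other neighbours did. In g*Spns1*-cKO livers *Slc27a5* stayed first at 260.1 ± 29.0 CPM per kilobase, and *Cyp7b1* went from place 5 to place 10 at 8.76 ± 1.41. *Nr0b2*, at 34.1 ± 7.34, was level with *Cyp7a1* at 29.7 ± 6.11 CPM per kilobase, whose libraries it overlapped, whereas *Cyp7a1* had been 3.53 times as high in control livers. Neighbours from *Baat* down to *Cyp7a1* also overlapped there. The deposited FPKM values gave the same places in both groups.

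**Figure D4:**
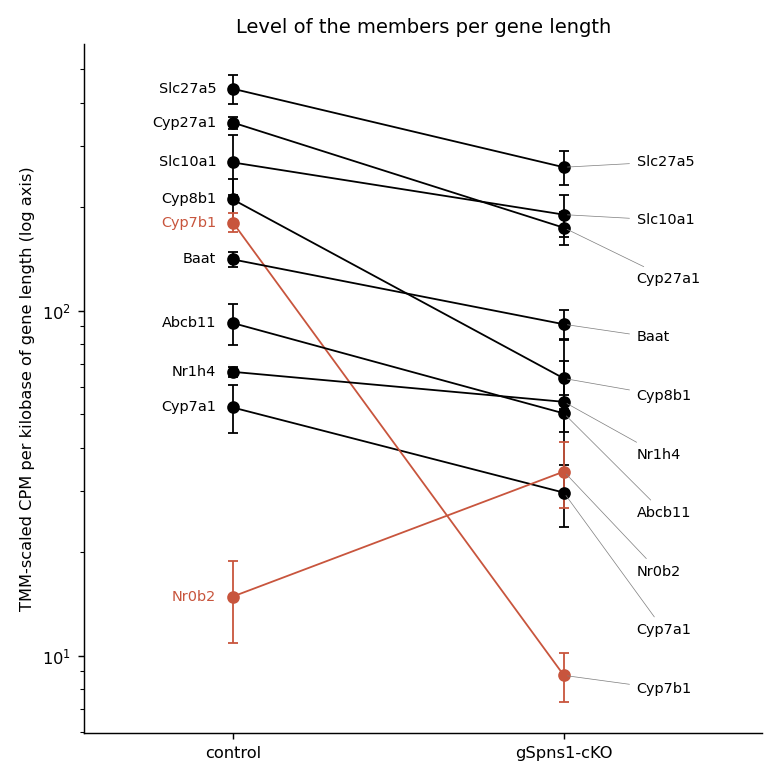
Mean level ± SD (n = 3 mice per group) of the 10 genes in CPM per kilobase on a log axis, joined between control and g*Spns1*-cKO livers. *Cyp7b1* and *Nr0b2*, in red, go from place 5 to 10 and from 10 to 8, and end at 8.76 and 34.1 CPM per kilobase. *Baat* and *Nr1h4* also go from place 6 to 4 and from 8 to 6, and *Slc10a1*, *Cyp27a1* and *Cyp8b1* change place too.

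Of 8010 genes averaging 10 CPM or more, those whose centred log2 CPM lay nearest to that of a member over the 6 libraries were listed for 3 members. They were *Gde1*, *Naa60* and *Zpr1* for *Cyp7a1*, with root mean square distances of 0.0718, 0.0763 and 0.0778 log2 units. For *Cyp8b1* they were *Lipe*, *Hes6* and *Kyat1*, at 0.0926, 0.101 and 0.135 log2 units. For *Nr0b2* they were *Utp14b*, *Wfdc2* and *Samd9l*, at 0.162, 0.173 and 0.178 log2 units, larger than those for *Cyp7a1*.

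Of 54 other genes of bile acid metabolism, 47 were tested and 7 were called higher and 18 lower, with a median log2 fold change of -0.29 against 0.014 over all genes. Under TMM, 21.3% of all genes were called higher and 20.5% lower. Among other synthesis enzymes, 11 of 13 were tested, with 1 called higher and 6 lower, or 3 and 3 with library size scaling. Under that scaling the median of all genes was 0.46, with 47.2% called higher and 6.28% lower. *Scp2*, the peroxisomal thiolase of side chain shortening, fell most, from 4632 ± 119 to 2025 ± 611 CPM (log2 fold change -1.19, edgeR adjusted p = 0.00153). *Cyp46a1*, cholesterol 24-hydroxylase, had 7.72, 6.43 and 5.06 CPM in control livers and 47.7, 44.6 and 83.1 CPM in g*Spns1*-cKO livers. It rose by a log2 fold change of 3.19 (edgeR adjusted p = 0.000302), the only synthesis gene called higher under TMM. *Cyp39a1*, which hydroxylates the 24-hydroxycholesterol that *Cyp46a1* makes, had 18.4, 28.1 and 26.2 CPM in control livers and 28.2, 73.4 and 75.3 CPM in g*Spns1*-cKO livers, and did not pass the test (edgeR adjusted p = 0.0630). Replicate 1 lay far from the other g*Spns1*-cKO livers and next to the highest control liver. *Cyp39a1* was called higher without it, at 1.61 (edgeR adjusted p = 6.0e-05), and with library size scaling, at 1.73 (edgeR adjusted p = 0.0211).

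*Cyp2c70*, which makes muricholic acids in mice, had a log2 fold change of -0.49 (edgeR adjusted p = 0.0208), but was at -0.05 with library size scaling and lost the call without control replicate 3, g*Spns1*-cKO replicate 2 or g*Spns1*-cKO replicate 3 (highest edgeR adjusted p = 0.0837). *Akr1d1* and *Acox2*, for the 5-beta reduction of the ring and for side chain oxidation, did not pass the test, at 0.15 and -0.26. With library size scaling *Akr1d1* was called higher at 0.60 (edgeR adjusted p = 0.0251) and *Acox2* turned to 0.18 (edgeR adjusted p = 0.281), while without g*Spns1*-cKO replicate 1 *Acox2* was called lower at -0.38. *Hsd3b7*, the second step of both pathways, had at most 6 counts in any library and was not tested. It lies wholly within *Gm49388* on the same strand, so its count is uncertain.

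Among the other transporters, 13 of 14 were tested, with 4 called higher and 3 lower, or 8 higher and 1 lower with library size scaling. Over all genes, TMM called 21.3% higher and 20.5% lower, and library size scaling 47.2% and 6.28%. The sinusoidal uptake carriers of the OATP family went in both directions. *Slco1a1* had 526, 427 and 324 CPM in control livers and 4.11, 2.48 and 2.67 CPM in g*Spns1*-cKO livers. It fell by 7.11 on the log2 scale (SE 0.29, edgeR adjusted p = 1.26e-06), more than any of the 10 genes. *Slco1a4* had 32.0, 18.8 and 39.4 CPM in control livers and 149.7, 292 and 244 CPM in g*Spns1*-cKO livers, and rose by 2.93 (edgeR adjusted p = 0.00183). The 2 genes are close paralogs, and reads that both could hold were not examined. *Slco1b2* had a log2 fold change of -0.60 (edgeR adjusted p = 0.0186) and lost its call under library size scaling, at -0.16, and without control replicate 3 or g*Spns1*-cKO replicate 3 (highest edgeR adjusted p = 0.0814).

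Export toward blood was represented by 3 tested genes. *Abcc4* (MRP4) had 1.99, 2.76 and 2.09 CPM in control livers and 7.20, 26.5 and 19.5 CPM in g*Spns1*-cKO livers, with replicate 1 the lowest of its group (log2 fold change 2.95, edgeR adjusted p = 0.00767). *Slc51b*, the beta subunit of the basolateral bile acid exporter, rose by 2.88 (edgeR adjusted p = 0.00106) with 11, 13 and 3 counts in control libraries and 54, 81 and 136 in g*Spns1*-cKO libraries. It overlaps *Rasl12* on the opposite strand, so reads of the overlap are uncertain. The alpha subunit gene *Slc51a*, which the exporter also needs, was too low to be tested. *Abcc3* (MRP3) did not pass the test, at 0.24 (edgeR adjusted p = 0.353).

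At the canalicular membrane, where *Abcb11* sits, *Abcb4*, the phosphatidylcholine floppase, had a log2 fold change of -0.56 (edgeR adjusted p = 0.00755; -0.12 and no call with library size scaling). *Abcc2* (MRP2) was at 0.20 and did not pass the test (edgeR adjusted p = 0.330). With library size scaling *Abcc2* and *Abcc3* were called higher, at 0.65 and 0.68, against a median of 0.46 over all genes.

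**Figure D5:**
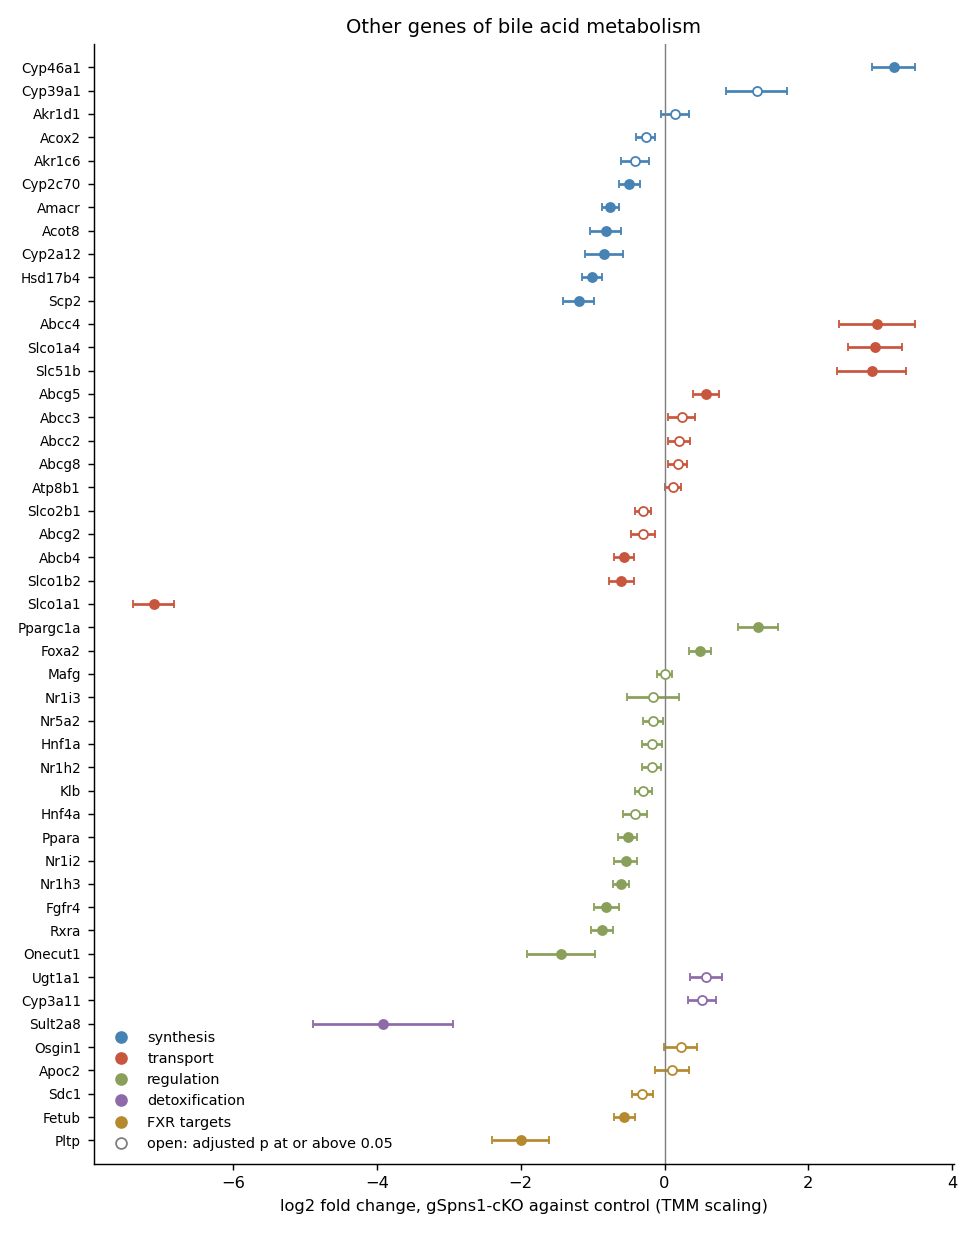
Log2 fold change ± SE, under TMM scaling, of the 47 tested genes of bile acid metabolism outside the 10, coloured by list, where open symbols have an edgeR adjusted p of 0.05 or more. *Slco1a1* lies farthest to the left at -7.11, and *Cyp46a1*, *Abcc4*, *Slco1a4* and *Slc51b* lie near 3.

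Among regulators, 15 of 18 genes were tested, with 2 called higher and 6 lower, or 3 higher and 1 lower with library size scaling. Over all genes, TMM called 21.3% higher and 20.5% lower, and library size scaling 47.2% and 6.28%. *Rxra*, the partner of FXR on DNA, had 463, 625 and 562 CPM in control livers and 299.5, 333 and 273 CPM in g*Spns1*-cKO livers (log2 fold change -0.87, edgeR adjusted p = 0.00147). *Fgfr4*, the hepatocyte receptor for the intestinal hormone FGF15, fell by 0.81 (edgeR adjusted p = 0.00464; -0.37 and no call with library size scaling), and its co-receptor gene *Klb* did not pass the test at -0.29 (edgeR adjusted p = 0.0731), though it did without control replicate 2 or g*Spns1*-cKO replicate 1, and stood at 0.15 with library size scaling. *Fgf15* itself had 0 counts in all 6 liver libraries. *Mafg*, an FXR-induced repressor of *Cyp8b1*, was at 0.00 (SE 0.10) under TMM and was called higher with library size scaling, at 0.45 (edgeR adjusted p = 0.00449). The median of all genes under that scaling was 0.46, so *Mafg* was level with the median gene under both.

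The activators of *Cyp7a1* and *Cyp8b1* transcription, *Hnf4a* and *Nr5a2* (LRH-1), did not pass the test, at -0.42 (edgeR adjusted p = 0.0666) and -0.16. *Hnf4a* was called lower without control replicate 1 or g*Spns1*-cKO replicate 2, and with library size scaling *Hnf4a* and *Nr5a2* turned to 0.03 and 0.29, not called. *Nr1h3* (LXR alpha) and *Nr1i2* (PXR) were called lower at -0.61 and -0.54, and both lost the call with library size scaling, at -0.16 and -0.09. *Nr1i2* also lost it without control replicate 3 or g*Spns1*-cKO replicate 3. *Nr1i3* (CAR) was at -0.16 with a wide spread in g*Spns1*-cKO livers, from 17.3 to 47.1 CPM. *Ppargc1a*, a coactivator, rose most, by 1.30 (edgeR adjusted p = 0.00822). *Onecut1* had the largest fall of the list, -1.44 (edgeR adjusted p = 0.0434), with a wide spread of 72 to 330 counts in control libraries. Its call was lost under each of the other 3 scalings and without any 1 library but control replicate 3 (range -1.80 to -0.84, highest edgeR adjusted p = 0.130).

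Of 4 detoxification genes 3 were tested and 1 was called lower, the bile acid sulfotransferase gene *Sult2a8*. With library size scaling, where the median of all genes was 0.46, *Cyp3a11* and *Ugt1a1* were called higher, at 0.96 and 1.03. Upper-quartile scaling, where that median was 0.14, also called these 2 genes higher, at 0.65 and 0.71. *Ugt1a1* lies wholly within other *Ugt1a* genes, so its count is uncertain. *Sult2a8* had 812, 639 and 832 CPM in control livers and 114, 15.6 and 21.4 CPM in g*Spns1*-cKO livers, where replicate 1 stood apart (log2 fold change -3.92, SE 0.98, edgeR adjusted p = 0.0348). Without that replicate the log2 fold change was -5.36, and the call was lost without any other single library (highest edgeR adjusted p = 0.0959). Of 10 listed genes outside the members that FXR is known to regulate, some of which also stand in the lists above, 8 were tested, 1 was called higher (*Slc51b*) and 3 lower, and the median was -0.15. With library size scaling 3 were called higher and 1, *Pltp*, lower, and the median was 0.29. That is against a median of 0.46 over all genes, of which 47.2% were then called higher and 6.28% lower. Under TMM, the shares over all genes were 21.3% higher and 20.5% lower. The largest fall was in *Pltp*, the phospholipid transfer protein, from 111 ± 45.6 to 27.7 ± 9.77 CPM (log2 fold change -2.00, edgeR adjusted p = 0.0111; lost without g*Spns1*-cKO replicate 3, edgeR adjusted p = 0.0510).

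Markers of liver cell types moved with the genotype. The 8 hepatocyte markers, by far the most abundant of the lists, summed to 110964 to 120165 CPM in control livers and 67713 to 78082 CPM in g*Spns1*-cKO livers, with 5 called lower under TMM and 0 with library size scaling. As shares of all counts these were 9.25% to 10.4% and 7.83% to 9.18%. Macrophage markers were called higher in 8 of 8, with sums of 174 to 285 and 684 to 1036 CPM. Cholangiocyte markers were called higher in 6 of 8 (91.8 to 124 and 206 to 313 CPM), stellate cell markers in 6 of 8 (192 to 221 and 511 to 557 CPM) and endothelial markers in 5 of 6 (137 to 153 and 202 to 249 CPM). The rise of the cholangiocyte sum was mostly that of *Spp1*, from a mean of 44.6 CPM in control to 195 CPM in g*Spns1*-cKO livers. *Slc10a2* of that list went the other way, from 37.5 to 22.4 CPM, and was not called (edgeR adjusted p = 0.161). Of all genes, 21.3% were called higher and 20.5% lower under TMM. Lymphocyte markers were low, at 2.41 to 3.44 and 4.86 to 6.15 CPM, with 1 of 6 called higher. No listed marker was at 0 in all libraries. Scaled to the hepatocyte markers, with factors of 0.952 to 1.07, *Cyp7b1*, *Cyp8b1*, *Cyp27a1* and *Nr0b2* kept their calls. These markers ranged from -0.98 (*Fgb*) to 0.33 (*Trf*) in log2 fold change under TMM, so that scaling does not measure the share of hepatocytes. The part of the cell type shifts in the values of the 10 genes was not tested.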

How the data were processed

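Liver RNA-Seq of 6 mice was analysed, with groups and replicate numbers from the sample titles. Per the submitters' processing notes, reads were handled with fastp, HISAT2 2.0.5, featureCounts 1.5.0-p3 and mm10. The strand setting of the counting is not given in the sources used here, so antisense overlaps were not resolved. The authors deposited raw counts per gene for each library, which were the values tested. The deposited FPKM values, which the authors divided by gene length and a library total, were used to repeat the order of levels and the within-library ratios; levels per kilobase used the deposited gene length. The authors also deposited a signal per group, log2 fold changes and p-values of their own comparison, which were not used.

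Counts were scaled by TMM, filtered by filterByExpr (15449 of 54532 genes) and compared with edgeR 4.0.16 (quasi-likelihood, robust, no covariate) in R 4.3.3, with a threshold of 0.05 on the Benjamini-Hochberg adjusted p. The procedure was tested on simulated data. DESeq2 1.42.0, limma-voom (limma 3.58.1), other scalings and filters, a stricter threshold, a replicate block and leaving out each library were alternatives. No 2 libraries of a group agreed within sampling noise (chi-square per gene 38.8 to 114). Same-numbered libraries of the groups did not deviate together (correlations 0.0371, 0.0331 and -0.0279).

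The genes named are the 10, *Spns1*, a list of main pathway genes, the most raised and most lowered called gene of each list, and the 3 genes nearest to *Cyp7a1*, *Cyp8b1* and *Nr0b2*. The genes and lists were chosen with earlier results of these data known. The hepatocyte marker *Tf* was matched to *Trf* through RefSeq synonyms, a choice made after seeing the data, as were the counts of each list under other scalings and the calls of single listed genes with a library left out. Promoter windows came from RefSeq (GRCm38.p6).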

Additional observations from a re-analysis of the deposited data

How the results depend on the processing

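DESeq2 and limma-voom called the same 10 genes. Their medians over all genes were 0.0080 and 0.014, close to that under TMM, so these calls do not test the choice of scaling. Scaling by library size, and by hepatocyte markers, left 3 of the 9 lower calls, and reversed *Nr1h4* to 0.16 (edgeR adjusted p = 0.223 and 0.273). Among the 54 other bile acid genes, 18 lower and 7 higher calls became 7 and 17 with library size and 6 and 17 with hepatocyte markers. A threshold of 0.01 left 9 lower. Leaving out 1 library at a time gave 11 (without g*Spns1*-cKO replicate 3) to 20 lower and 5 to 10 higher. Over all genes, the same fits gave 2125 (also without g*Spns1*-cKO replicate 3) to 3216 lower and 2365 to 3213 higher calls. Library size scaling called 0 hepatocyte markers lower (5 with TMM) and 1 higher, and 3 lymphocyte markers higher (1 with TMM). For all genes it gave 7289 higher and 970 lower calls, hepatocyte scaling 7132 and 919, upper-quartile scaling 4111 and 2240, and TMM 3286 and 3166. A filter of at least 1 count in any library lost *Nr1h4*, and at least 10 in every library lost *Nr1h4* and *Slc10a1*. A fit with the replicate block kept 8 of the 10 calls and lost *Slc10a1* (-0.49, edgeR adjusted p = 0.0819) and *Nr1h4* (-0.29, edgeR adjusted p = 0.0767), but the numbers do not pair the mice.

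With 1 library left out, log2 fold changes ranged from -0.97 to -0.68 for *Cyp7a1*, -1.99 to -1.56 for *Cyp8b1*, -1.09 to -0.94 for *Cyp27a1*, -4.47 to -4.24 for *Cyp7b1* and 1.00 to 1.38 for *Nr0b2*, all called. The log2 ratio difference ranged from -0.0345 (without g*Spns1*-cKO replicate 2) to 0.42 for *Cyp7a1* to *Cyp27a1*, -1.31 to -0.60 for *Cyp8b1* to *Cyp7a1*, -0.88 to -0.07 for *Abcb11* to *Slc10a1*, 3.27 to 3.81 for *Cyp7a1* to *Cyp7b1* and 1.30 to 1.69 for *Nr0b2* to *Nr1h4*. With 3 mice a group, no exact test could pass 0.05. Intervals of counts were not the limit, since every one of the 10 genes had at least 370 counts per library.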
